A study of Homo sapiens with 36 samples.

Results

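The interleukin-1 (IL-1) family was followed as 10 genes, taken by symbol from a table of 58735, in 3 established human squamous carcinoma lines of the head and neck. They are the ligands IL1A, IL1B, IL36G, IL18 and IL33, the receptor antagonists IL1RN and IL36RN, the receptor IL1R1 with its accessory chain IL1RAP, and the decoy receptor IL1R2. Each symbol stood on 1 gene. RNA-seq counts were available for 36 libraries, 3 in each of 12 groups. In the first experiment HN4, HN6 and Cal27 cells received 100 ng per ml of recombinant human interleukin-8 (IL-8, a chemokine whose gene is CXCL8) over 24 h or were left untreated, and the design text gives the question as how lines that differ in CXCR1, an IL-8 receptor, respond. CXCR1 transcript was near the floor in all 3 untreated lines, at 0.0694 ± 0.0329 CPM in Cal27, 0 in HN6 and 0.019 ± 0.0329 CPM in HN4, and was not called between any of them. Transcript of CXCR2, another IL-8 receptor, was at 6.94 ± 0.864 CPM in untreated Cal27, 0.0382 ± 0.033 CPM in HN6 and 0.202 ± 0.177 CPM in HN4. It was called higher in Cal27 than in either, and lower in HN6 than in HN4, whose libraries overlapped. In the second, the same lines were transfected with an ACLY plasmid or the vector plasmid, and the question was what lies downstream of ACLY, which splits citrate to give acetyl-CoA outside the mitochondrion. All 12 groups were grown in medium whose serum had been depleted of exosomes. The labels number the 3 libraries of a group and do not say that each had its own culture. The spread behind every p-value is therefore that among these libraries and may be technical.

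IL-1 alpha and IL-1 beta bind IL1R1, which then recruits IL1RAP and signals through MYD88 and IRAK kinases to NF-kappa-B. The product of IL1RN occupies IL1R1 without recruiting IL1RAP, and IL1R2 binds the ligands without signalling. In squamous epithelium IL-1 alpha is made constitutively and acts as an alarm signal when cells are damaged, whereas IL-1 beta and IL-18 are made as precursors that caspase-1 cleaves. IL-36 gamma and its antagonist, encoded by IL36RN, are family members best known from keratinocytes, and IL-33 is a nuclear cytokine of barrier epithelium.

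Library totals ran from 16570601 to 20232735 counts. Levels are library-scaled counts (CPM) with TMM factors over the 36 libraries, given per library or as mean ± SD with n = 3. A gene is called where the edgeR quasi-likelihood test gave a Benjamini-Hochberg adjusted p under 0.05 over all genes tested, and log2 changes carry their standard error (SE). A library with 0 reads allows up to 0.148 to 0.181 CPM, which covers counting error only. Markers of squamous epithelium were read in every group, with 9 or 10 of 10 at 1 CPM or more, although KRT14 had no reads in untreated HN4 or in the HN4 libraries labelled ACLY. Of 10 leukocyte markers, FCGR3A and MS4A1 had no reads in any group, while CSF1R was at 9.45 to 29.6 CPM and CD14 at 2.83 to 6.66 CPM in every group, and HLA-DRA and ITGAM were at 169 and 8.19 CPM in untreated Cal27.

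Some libraries stood apart from their labels or their groups. ACLY was at 345 ± 28.5 CPM in the HN4 libraries labelled ACLY and at 1510 ± 9.08 CPM in those labelled vector, so every HN4 value of the plasmid experiment is given as labelled. In HN6 and Cal27 ACLY was 8.26 and 8.19 times as high with its plasmid as with the vector. It was also higher with IL-8 in HN4 (1360 ± 17.0 CPM, against 368 ± 7.32 CPM untreated) and in Cal27 (1170 ± 127 CPM, against 232 ± 4.78 CPM untreated). In HN6 it was lower with IL-8, at 228 ± 3.07 CPM against 283 ± 3.55 CPM untreated (log2 change -0.31, edgeR adjusted p = 0.00232). The HN4 libraries labelled vector differed from HN4 with IL-8 in 17 of 19351 genes in an edgeR fit of all 36 libraries, and no IL-1 family member was among them. The HN4 libraries labelled ACLY differed from untreated HN4 in 173 genes in that fit, with IL1RN among them (log2 difference 1.31, edgeR adjusted p = 0.0187). Treated Cal27 libraries held genes that were at 20 CPM or more in untreated HN4 and at 0.3 CPM or less in both other untreated lines. Over 11 such genes, the median level relative to HN4 was 0.562 ± 0.00617 in ACLY-transfected Cal27 and 0.313 ± 0.0159 in IL-8-treated Cal27, against 0 in either Cal27 control. For the 13 genes specific to Cal27 by the same rule, the level relative to untreated Cal27 had a median of 0.261 ± 0.0158 after the ACLY plasmid and 0.631 ± 0.0673 after IL-8. Replicate 3 of Cal27 with IL-8 had 1.06% of its counts on mitochondrial genes, against 3.37% and 3.59% in the other libraries of its group. Replicate 3 of HN4 labelled ACLY had 2.15%, against 5.71% and 6.03%.

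Of the 10 genes, 7 lie on chromosome 2. IL1A (ENSG00000115008, 112773915 to 112784590, hg38, minus strand), IL1B (ENSG00000125538, 112829751 to 112836903, minus strand), IL36G, IL36RN and IL1RN (ENSG00000136689, 113107214 to 113134016, plus strand) stand within 360 kb, and IL1R2 and IL1R1 stand within 188 kb. IL18 is on chromosome 11, IL33 on chromosome 9 and IL1RAP on chromosome 3. RefSeq promoter windows of 300 bases on GRCh38.p14, 250 before and 50 after a transcript start, were found for 9 of the 10 genes and not for IL18. The windows of IL1A, IL1B and IL1RN are shown because these are the agonists and the antagonist that the results turn on. Capitals mark the AP-1 motif TGANTCA, whose reverse complement is itself.
IL1A: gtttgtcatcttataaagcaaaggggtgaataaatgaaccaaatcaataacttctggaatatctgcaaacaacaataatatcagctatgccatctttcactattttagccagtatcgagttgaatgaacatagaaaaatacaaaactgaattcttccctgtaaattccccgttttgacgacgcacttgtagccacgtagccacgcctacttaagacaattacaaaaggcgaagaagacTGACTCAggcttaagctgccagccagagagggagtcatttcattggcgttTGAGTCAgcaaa
IL1B: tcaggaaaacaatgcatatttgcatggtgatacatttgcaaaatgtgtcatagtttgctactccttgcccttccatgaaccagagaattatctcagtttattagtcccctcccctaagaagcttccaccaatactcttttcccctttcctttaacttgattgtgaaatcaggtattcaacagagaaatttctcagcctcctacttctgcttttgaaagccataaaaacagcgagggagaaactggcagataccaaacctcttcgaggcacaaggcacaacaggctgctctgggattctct
IL1RN: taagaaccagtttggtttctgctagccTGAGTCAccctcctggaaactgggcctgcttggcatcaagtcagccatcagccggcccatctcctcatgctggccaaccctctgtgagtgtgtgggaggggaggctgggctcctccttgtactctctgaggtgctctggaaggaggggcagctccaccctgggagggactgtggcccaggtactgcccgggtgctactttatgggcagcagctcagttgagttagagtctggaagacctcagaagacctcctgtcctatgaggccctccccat
These are chr2:112784444-112784743 on the minus strand, chr2:112836730-112837029 on the minus strand and chr2:113117721-113118020 on the plus strand. The start used for IL1RN lies 10757 bases inside the deposited gene. RefSeq gives 2 starts for IL1A and 3 for IL1RN, and the first listed of each is shown. From these starts the AP-1 motif begins at -12 and at +39 for IL1A and at -223 for IL1RN. The other IL1A window also holds it, the other 2 of IL1RN do not, and 7.71% of all 35116 promoter windows hold it. The kappa-B consensus, searched on both strands, was in 5.91% of windows and in none of these 3, and among the members only IL36RN held it, beginning at +1. No motif hit overlapped another. These matches describe letters and do not show binding.

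Before treatment the 3 lines held unequal agonist, antagonist and receptor transcript. Untreated HN4 and Cal27 were rich in IL1A and IL1B and HN6 was poor in both, IL1RN was highest in Cal27 and nearly unread in HN4, and IL1R1 was highest in HN6. Of the 10 members, 3 were higher and 3 lower in HN6 than in HN4, 6 were higher and 2 lower in Cal27 than in HN4, and 7 were higher and 1 lower in Cal27 than in HN6. HN6 against HN4 called 67.2% of 18400 genes (32.4% higher, 34.7% lower), Cal27 against HN4 called 63.6% (32.2% higher, 31.4% lower) and Cal27 against HN6 called 68.4% (35.2% higher, 33.1% lower), so most genes of any kind were called. In bulk RNA, fewer cells with a transcript and less transcript per cell cannot be told apart.

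IL1A was read at 332, 369 and 376 CPM in Cal27, at 37.6, 44.8 and 39.9 CPM in HN6 and at 453, 469 and 447 CPM in HN4. All 3 lines were separate, with log2 differences of -3.53 (SE 0.0989, edgeR adjusted p = 3.47e-15) for HN6 and -0.34 (SE 0.0885, edgeR adjusted p = 0.00259) for Cal27, both against HN4. IL1B was at 294, 301 and 300 CPM in Cal27, at 62.7, 60.7 and 63.2 CPM in HN6 and at 290, 292 and 269 CPM in HN4. It was 0.212 times as high in HN6 as in HN4 (edgeR adjusted p = 9.69e-13), while Cal27 and HN4 gave a log2 difference of 0.08 (SE 0.092, edgeR adjusted p = 0.481). IL18 was at 19.8 ± 2.37 CPM in Cal27, 17.4 ± 1.59 in HN6 and 25.5 ± 0.892 in HN4, lower than HN4 in both other lines (edgeR adjusted p = 0.000216 for HN6 and 0.0106 for Cal27). The Cal27 call of IL18 was lost without untreated Cal27 replicate 2 (log2 difference -0.31, edgeR adjusted p = 0.0503).

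IL1RN was read at 25.8, 26.7 and 25.6 CPM in Cal27, at 2.45, 3.10 and 3.48 CPM in HN6 and at 0.453, 0.446 and 0.342 CPM in HN4, where it rested on 23 reads over 3 libraries. No 2 lines overlapped. Cal27 stood 5.95 log2 units above HN4 (SE 0.182, edgeR adjusted p = 9.63e-15) and 3.16 above HN6 (SE 0.137, edgeR adjusted p = 8.84e-13). IL36G was at 3.21 ± 0.526 CPM in Cal27, 0.325 ± 0.257 in HN6 and 0.569 ± 0.258 in HN4. Cal27 was higher than HN4 by 2.50 log2 units (SE 0.423, edgeR adjusted p = 4.82e-05) and than HN6 by 3.31 (SE 0.47, edgeR adjusted p = 6.07e-06). IL36RN was low in all 3, at 1.09 ± 0.163 CPM in Cal27, 0.925 ± 0.303 in HN6 and 0.510 ± 0.303 in HN4, and its call between Cal27 and HN4 (edgeR adjusted p = 0.0225) was lost on leaving out untreated HN4 replicate 2 or 3 or untreated Cal27 replicate 3 (edgeR adjusted p = 0.0848, 0.105 and 0.0796). IL33 had 9 reads in Cal27, 0 in HN6 and 6 in HN4 over 3 libraries each, at or near the floor, and failed the filter on low counts that the other 9 members passed. Its call between Cal27 and HN6 (edgeR adjusted p = 0.0378) was lost with the replicate number as a block (edgeR adjusted p = 0.0558) and under DESeq2 (adjusted p = 0.0567). It was also lost on leaving out any untreated HN6 replicate or untreated Cal27 replicate 1 or 3.

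IL1R1, the signalling receptor, was at 10.1, 12.5 and 13.3 CPM in Cal27, 33.8, 33.7 and 36.1 CPM in HN6 and 5.94, 4.74 and 5.75 CPM in HN4. HN6 was 6.09 times as high as HN4 (edgeR adjusted p = 6.87e-08), and Cal27 was 0.359 times as high as HN6 (edgeR adjusted p = 2.67e-05). IL1RAP, the chain shared with the IL-33 and IL-36 receptors, was highest in Cal27, at 53.8 ± 3.56 CPM, with 36.6 ± 4.69 in HN6 and 19.5 ± 1.49 in HN4. The decoy IL1R2 was also highest in Cal27, at 1.8 ± 0.217 CPM, with 0.793 ± 0.209 in HN6 and 0.467 ± 0.116 in HN4. Per kilobase of gene length, IL1A was the most abundant member in HN4 (215 ± 5.31 CPM per kb) and in Cal27 (169 ± 10.9). In HN6, IL1B (20.1 ± 0.429 CPM per kb) and IL1A (19.2 ± 1.72) were level within their SDs.

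Over all 12 groups, IL1A was highest in HN4 labelled ACLY (526 ± 33.1 CPM) and lowest in untreated HN6 (40.8 ± 3.65 CPM). The 6 groups from untreated Cal27 (359 ± 23.3 CPM) down to Cal27 with the ACLY plasmid (312 ± 5.78 CPM) each overlapped their neighbour, and the next, HN6 with the ACLY plasmid, was apart at 144 ± 3.1 CPM. IL1B put all 4 HN6 groups last, between 53.2 ± 1.7 and 86.0 ± 4.92 CPM. IL1RN ran from 27.1 ± 1.02 CPM in Cal27 with the vector, which overlapped untreated Cal27, to 0.413 ± 0.0623 CPM in untreated HN4, with all 4 HN4 groups last. HN6 with the ACLY plasmid and Cal27 with IL-8 overlapped for IL1RN at 15 ± 0.197 and 14.5 ± 1.27 CPM. IL1R1 put the 4 HN6 groups first, from 75.9 ± 2.05 to 34.5 ± 1.37 CPM, and from Cal27 with IL-8 down to untreated HN4 each group overlapped its neighbour. IL1R2 ran from 2.54 ± 0.799 CPM in Cal27 with IL-8 to 0.467 ± 0.116 CPM in untreated HN4 and was not called with IL-8 or with the plasmid in any line.

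**Figure D1:**
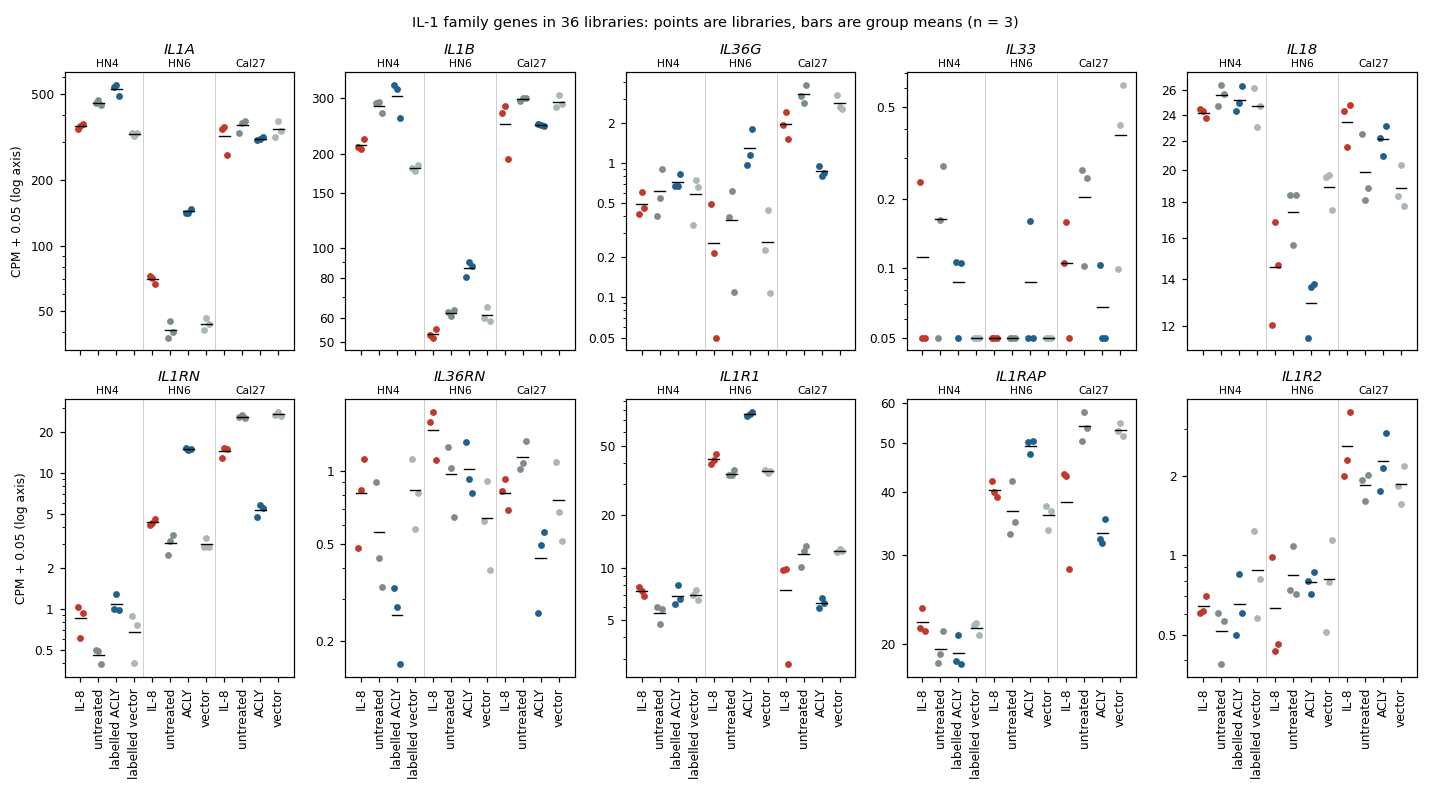
Levels of the 10 IL-1 family genes in 36 libraries, as CPM + 0.05 on log axes that differ between panels, in 3 lines with IL-8, untreated, with the ACLY plasmid and with the vector. Points are libraries and bars group means (n = 3). IL1A and IL1RN in HN6 with the ACLY plasmid (144 and 15 CPM) lie well above the vector libraries (43.5 and 2.98 CPM), whereas IL1RN in Cal27 with the ACLY plasmid (5.35 CPM) lies below its vector (27.1 CPM).

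With IL-8, different IL-1 family genes were called in each line. In HN4, IL1A and IL1B fell, in HN6 IL1A and IL1RN rose, and in Cal27 IL1B, IL1RN, IL1R1 and IL1RAP fell. IL1A was read at 347, 358 and 366 CPM in HN4 with IL-8, against 453, 469 and 447 CPM in untreated HN4, without overlap (log2 change -0.38, SE 0.0885, edgeR adjusted p = 0.00808). IL1B was at 210, 206 and 223 CPM with IL-8, against 290, 292 and 269 CPM untreated (log2 change -0.44, SE 0.0924, edgeR adjusted p = 0.00406). The 2 falls stand beside 14.0% of 18400 genes called in HN4, with 6.89% of genes higher and 7.07% lower. IL1RN in HN4 rested on 16, 10 and 15 reads with IL-8 and 9, 8 and 6 reads untreated and did not pass (log2 change 0.92, SE 0.285, edgeR adjusted p = 0.0701).

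In HN6, IL1A stood at 72.1, 70.5 and 66.7 CPM with IL-8, against 37.6, 44.8 and 39.9 CPM untreated. Every library with IL-8 was above every untreated one, at 1.71 times the level (log2 change 0.77, SE 0.0923, edgeR adjusted p = 2.45e-05). IL1B was at 53.2 ± 1.70 CPM with IL-8 and 62.2 ± 1.33 untreated (log2 change -0.23, SE 0.0951, edgeR adjusted p = 0.12). The ratio of IL1B to IL1A per kilobase was 0.501, 0.504 and 0.567 with IL-8, against 1.14, 0.931 and 1.09 untreated. IL1RN was at 4.08, 4.28 and 4.58 CPM with IL-8, against 2.45, 3.10 and 3.48 CPM untreated (log2 change 0.52, SE 0.152, edgeR adjusted p = 0.0273). That call was lost with no filter on low counts (edgeR adjusted p = 0.0968) and on leaving out untreated replicate 1 or 2 or any of the IL-8 replicates. In HN6, 15.5% of 18400 genes were called, with 7.64% higher and 7.83% lower. The summed fibroblast markers were at 30.3 to 32.6 CPM with IL-8 and 17.3 to 18.9 CPM untreated, with COL1A2, COL3A1, DCN and PDGFRA at 0 reads with IL-8, and their part in these changes was not tested.

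In Cal27 the clearest fall was in the antagonist. IL1RN was read at 13, 15.3 and 15.1 CPM with IL-8, against 25.8, 26.7 and 25.6 CPM untreated (log2 change -0.87, SE 0.117, edgeR adjusted p = 1.82e-05), and the log2 change was -0.92 without IL-8 replicate 3. The signalling receptor had 9.63, 9.73 and 2.75 CPM with IL-8, against 10.1, 12.5 and 13.3 CPM untreated. The fall of IL1R1 (log2 change -0.72, SE 0.255, edgeR adjusted p = 0.0321) was -0.35 without replicate 3 (edgeR adjusted p = 0.0152). IL1RAP had 43.3, 42.9 and 28.1 CPM with IL-8, against 50.4, 57.5 and 53.5 CPM untreated, so replicate 3 was again the lowest. Its log2 change was -0.52 (SE 0.124, edgeR adjusted p = 0.00304), and -0.36 without replicate 3. IL1B had 270, 284 and 192 CPM with IL-8, against 294, 301 and 300 CPM untreated (log2 change -0.29, SE 0.0922, edgeR adjusted p = 0.0193), and -0.15 without replicate 3. In a fit of the Cal27 libraries alone, IL1RN was the only member of the 4 still called, and the others had edgeR adjusted p of 0.213 (IL1B), 0.238 (IL1R1) and 0.0781 (IL1RAP). IL1B and IL1R1 also lost their calls without untreated replicate 2 or 3. The 4 falls stand beside 39.4% of 18400 genes called in Cal27, with 22.7% of genes higher and 16.7% lower. The HN4-only genes stood at 0.313 ± 0.0159 of their HN4 level in these libraries, and their part in the falls was not tested.

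Leaving out that 1 library also changed the spread shared by the other lines. Without it, 4 members were called in HN4 with IL-8 and 5 in HN6, in place of 2 and 2. Calls over all genes rose too, to 5733 of 18918 in HN4 and 6194 of 18918 in HN6. With every library they were 2567 and 2845 of 18400. IL1RN in HN4 then passed (0.92, edgeR adjusted p = 0.0397), as did IL1R1 in HN4 (0.38, edgeR adjusted p = 0.0176) and in HN6 (0.27, edgeR adjusted p = 0.00826). IL1B (-0.23, edgeR adjusted p = 0.000552) and IL18 (-0.27, edgeR adjusted p = 0.0403) also passed in HN6. The median log2 change over the 10 members was 0.02 in HN4, 0.07 in HN6 and -0.53 in Cal27, beside -0.01, 0 and 0 over all genes.

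**Figure D2:**
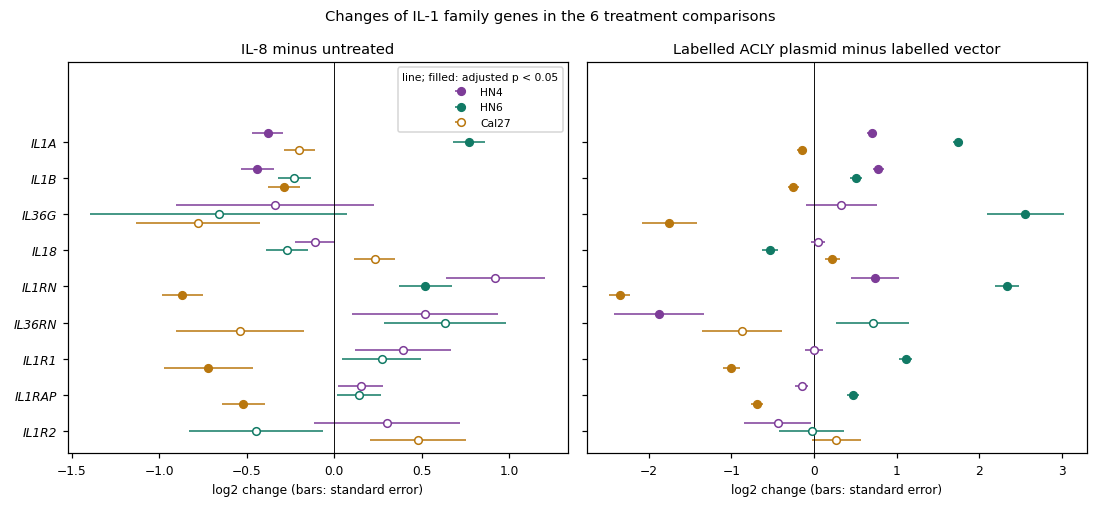
Log2 changes of 9 IL-1 family genes (IL33 left out) with IL-8 against untreated and with the labelled ACLY plasmid against the labelled vector, with standard errors as bars. Filled points passed an edgeR adjusted p of 0.05. With the ACLY plasmid, IL1RN stands at 2.34 in HN6 and at -2.35 in Cal27.

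The ACLY plasmid was followed by higher agonist, antagonist and receptor transcripts in HN6. IL1A, IL1B, IL36G, IL1RN, IL1R1 and IL1RAP rose and IL18 fell, which is 7 of 10 members called beside 51.6% of 18558 genes, with 26.8% of genes higher and 24.9% lower. IL1A was read at 142, 142 and 147 CPM with the ACLY plasmid, against 40.6, 46.5 and 43.5 CPM with the vector (3.34 times, log2 change 1.74, SE 0.0623, edgeR adjusted p = 4.86e-22). IL1B was at 80.5, 90.1 and 87.3 CPM, against 59.6, 64.6 and 58.5 CPM (log2 change 0.51, SE 0.0712, edgeR adjusted p = 4.74e-07). Both sets of libraries were apart for each agonist. IL36G had 16, 20 and 34 reads with the ACLY plasmid and 3, 7 and 1 with the vector (log2 change 2.56, SE 0.467, edgeR adjusted p = 1.91e-05).

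IL1RN in HN6 stood at 15.2, 14.8 and 15 CPM with the ACLY plasmid, against 2.82, 3.31 and 2.80 CPM with the vector. The rise was 5.08 times (log2 change 2.34, SE 0.144, edgeR adjusted p = 9.24e-16), and the libraries of each group lay close together. IL1R1 was at 73.9, 75.7 and 78.0 CPM with the ACLY plasmid, against 36.2, 34.6 and 35.8 CPM with the vector (2.15 times, log2 change 1.11, SE 0.0775, edgeR adjusted p = 2.75e-14). IL1RAP was at 49.3 ± 1.64 CPM, against 35.9 ± 2.08 CPM (log2 change 0.47, SE 0.0718, edgeR adjusted p = 9.27e-07). IL18 fell to 11.5, 13.6 and 13.7 CPM, against 19.5, 19.6 and 17.5 CPM with the vector (log2 change -0.53, SE 0.0964, edgeR adjusted p = 1.9e-05). IL1R2 had 0.740 ± 0.0773 CPM with the ACLY plasmid and 0.763 ± 0.314 with the vector. The median log2 change of the 10 members was 0.91, beside 0.04 over all genes.

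Markers of other cells moved in the same HN6 libraries. The 10 leukocyte markers summed to 38.0 to 44.3 CPM with the ACLY plasmid and 18.8 to 19.2 CPM with the vector, of which CSF1R held 29.6 and 13.2 CPM, while PTPRC had 2 and 0 reads. The 9 fibroblast markers summed to 53.5 to 61.4 CPM with the ACLY plasmid and 18.9 to 22.7 CPM with the vector, of which COL1A1 held 44.9 and 14.9 CPM, while DCN and PDGFRA had none. The 6 endothelial markers summed to 21.5 to 23.8 CPM with the ACLY plasmid and 11 to 13.2 CPM with the vector, of which CDH5 held 15.9 and 9.99 CPM. The part of these in the IL-1 family changes was not tested.

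In Cal27 the ACLY plasmid was followed by lower antagonist and receptor transcripts. IL1RN, IL36G, IL1R1, IL1RAP, IL1B, IL1A and IL33 were called lower and IL18 higher, which is 8 of 10 members beside 63.2% of 18558 genes, with 34.2% of genes higher and 29.0% lower. IL1RN was read at 4.73, 5.84 and 5.47 CPM with the ACLY plasmid, against 26.9, 28.3 and 26.2 CPM with the vector (0.196 times, log2 change -2.35, SE 0.128, edgeR adjusted p = 1.7e-17). IL36G had 0.816 ± 0.0788 CPM, against 2.74 ± 0.37 CPM (log2 change -1.75, SE 0.332, edgeR adjusted p = 2.37e-05). Neither gene had overlapping libraries.

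IL1R1 in Cal27 was at 5.84, 6.68 and 6.22 CPM with the ACLY plasmid, against 12.2, 12.8 and 12.4 CPM with the vector, a log2 change of -1.0 (SE 0.103, edgeR adjusted p = 2.22e-10). IL1RAP was at 32.3, 31.7 and 35.3 CPM, against 52.6, 54.7 and 51.4 CPM (log2 change -0.69, SE 0.0715, edgeR adjusted p = 2.63e-10). For both chains every ACLY library lay below every vector library. IL1B was at 247 ± 1.44 CPM, against 292 ± 14.5 CPM (log2 change -0.25, SE 0.0653, edgeR adjusted p = 0.00125). IL1A was at 306, 312 and 318 CPM with the ACLY plasmid and 317, 377 and 339 CPM with the vector, which overlap (log2 change -0.15, SE 0.0559, edgeR adjusted p = 0.0172). The call of IL1A was lost on leaving out ACLY replicate 1 or 2 or vector replicate 2 (log2 change -0.14, -0.15 and -0.08). It was also lost with all 36 libraries in 1 fit (edgeR adjusted p = 0.13). IL33 had 1, 0 and 0 reads with the ACLY plasmid and 1, 7 and 11 with the vector, so its call (edgeR adjusted p = 0.00718) rested on few reads and was lost without vector replicate 3 (edgeR adjusted p = 0.0581). IL18 was at 22.1 ± 1.10 CPM, against 18.8 ± 1.36 CPM (log2 change 0.22, SE 0.0909, edgeR adjusted p = 0.0339), a call lost with upper-quartile factors (log2 change 0.07) and under DESeq2 (adjusted p = 0.131), among others.

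**Figure D3:**
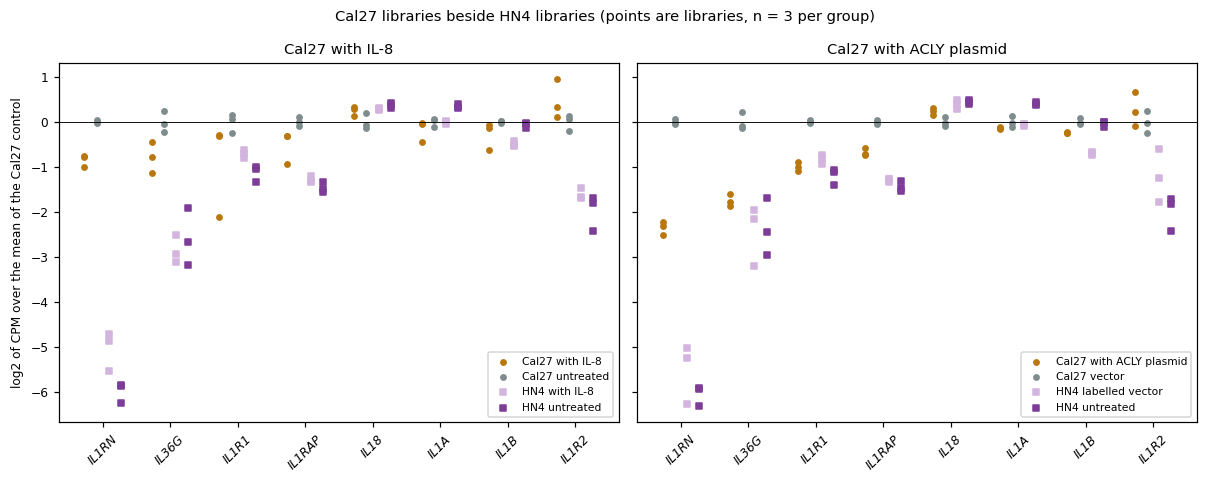
Levels of 8 IL-1 family genes in Cal27 with IL-8 or the ACLY plasmid beside their Cal27 controls and 2 HN4 groups, as log2 of CPM over the mean of the Cal27 control. Points are libraries (n = 3 per group). IL1RN, IL36G and IL1RAP of the treated Cal27 libraries lie between the Cal27 control and both HN4 groups on their means, and IL1R2 lies on the far side of the Cal27 control.

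The treated Cal27 levels can be placed on the line from the Cal27 control to HN4. With IL-8, 6 of 9 members (IL33 left out) had means between untreated Cal27 and untreated HN4. With the ACLY plasmid, 5 of 9 had means between the Cal27 vector and untreated HN4. On the CPM scale IL1RN covered 0.452 of the distance with IL-8 and 0.815 with the ACLY plasmid, IL36G covered 0.497 and 0.886, and IL1RAP covered 0.458 and 0.593. IL1A and IL1R2 lay away from untreated HN4 in both treatments, and IL1B lay beyond it. Set against HN4 with IL-8, 7 of 9 members lay between in Cal27 with IL-8, and set against HN4 labelled vector, 5 of 9 lay between in Cal27 with the ACLY plasmid. The leukocyte markers of Cal27 summed to 105 to 109 CPM with the ACLY plasmid, against 183 to 194 CPM with the vector, and to 139 to 150 CPM with IL-8, against 190 to 197 CPM untreated, mostly from HLA-DRA. With the ACLY plasmid the fibroblast markers summed to 18.4 to 19.7 CPM, against 30.1 to 32.1 CPM with the vector, although FAP was higher (log2 difference 7.44, edgeR adjusted p = 3.56e-20). FAP was at 5.83 CPM in Cal27 with IL-8, against 0.0172 CPM untreated, and at 31.2 CPM in untreated HN4. The endothelial markers summed to 12.3 to 13.4 CPM with the ACLY plasmid, against 27.3 to 29.1 CPM with the vector, and the squamous markers to 4450 to 4620 CPM, against 7370 to 8160 CPM, with 9 of 10 called lower. With IL-8 the endothelial markers summed to 16 to 19.5 CPM, against 28.5 to 28.9 CPM untreated, while the fibroblast sums (21.6 to 27.8 against 26.8 to 29.5 CPM) and the squamous sums (5740 to 7410 against 7360 to 8160 CPM) overlapped. The part of HN4-type transcripts and of these markers in the Cal27 changes was not tested.

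In HN4, as labelled, the ACLY libraries held more IL1A and IL1B than the vector libraries. IL1A was at 537, 552 and 488 CPM in libraries labelled ACLY, against 331, 322 and 332 CPM in those labelled vector (log2 change 0.70, SE 0.056, edgeR adjusted p = 4.61e-12). IL1B was at 331, 321 and 260 CPM, against 180, 176 and 184 CPM (log2 change 0.78, SE 0.0661, edgeR adjusted p = 1.42e-10). IL36RN had 5, 4 and 2 reads in libraries labelled ACLY and 18, 9 and 15 in those labelled vector (log2 change -1.88, SE 0.547, edgeR adjusted p = 0.00627). IL1RN had 17, 22 and 17 reads, against 14, 6 and 14 (log2 change 0.74, SE 0.287, edgeR adjusted p = 0.0445). That call was lost under DESeq2 (adjusted p = 0.0577) and without vector replicate 2 (log2 change 0.46, edgeR adjusted p = 0.283), vector replicate 3, or ACLY replicate 1 or 2. It was also lost with no filter (edgeR adjusted p = 0.121), with only the groups compared (edgeR adjusted p = 0.161) and with all 36 libraries in 1 fit (edgeR adjusted p = 0.0561). The receptors IL1R1, IL1RAP and IL1R2 were not called. Fibroblast markers summed to 36.6 to 38.3 CPM in libraries labelled ACLY, against 54.0 to 54.9 CPM in those labelled vector, mostly FAP, and squamous markers to 1410 to 1430 CPM, against 1540 to 1570 CPM, with 2 called higher and 6 lower. Their part in the HN4 differences was not tested. The 3 rises and 1 fall stand beside 38.1% of 18558 genes called, with 19.0% higher and 19.1% lower. Without replicate 3 labelled ACLY, the log2 changes of IL1A and IL1B were 0.75 and 0.88. ACLY itself was lower in the libraries labelled ACLY, so these directions follow the labels only.

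The balance of antagonist to agonist transcript differed among untreated lines and moved in opposite directions with the ACLY plasmid in HN6 and Cal27. IL1RN per kilobase as a percent of IL1A plus IL1B was 3.02 ± 0.136% in untreated Cal27, 2.35 ± 0.37% in untreated HN6 and 0.0414 ± 0.00534% in untreated HN4. In HN6 it was 5.03, 4.73 and 4.73% with the ACLY plasmid, against 2.26, 2.38 and 2.19% with the vector. In Cal27 it was 0.647, 0.790 and 0.734% with the ACLY plasmid, against 3.44, 3.13 and 3.20% with the vector. Neither pair of groups overlapped. With IL-8 it was 1.6, 1.83 and 2.51% in Cal27, against 3.15, 3.03 and 2.87% untreated, and 2.65 ± 0.201% in HN6, against 2.35 ± 0.37% untreated, where the libraries overlapped. In HN4 it was 0.105 ± 0.0294% with IL-8, against 0.0414 ± 0.00534% untreated, and 0.0932 ± 0.0121% in libraries labelled ACLY, against 0.0911 ± 0.0352% in those labelled vector. The Cal27 falls thus ran toward the HN4 percents. In Cal27 with the ACLY plasmid, HN4-only genes stood at 0.562 ± 0.00617 of their HN4 level and Cal27-only genes at 0.261 ± 0.0158 of their untreated Cal27 level. The part of HN4-type transcripts in the Cal27 percents was not tested.

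**Figure D4:**
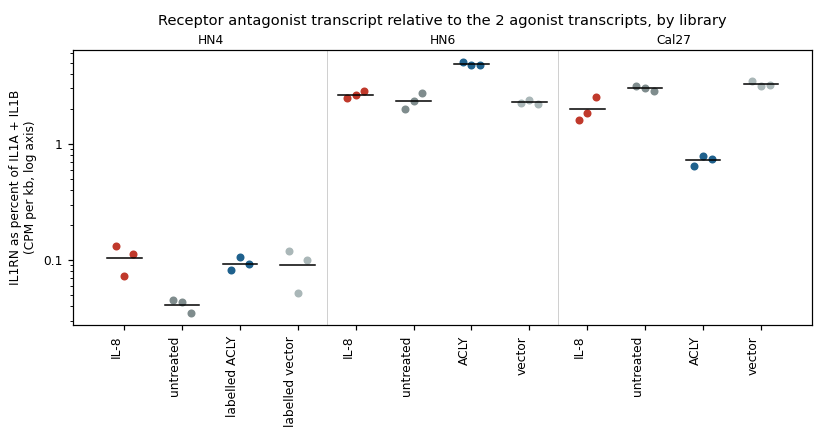
IL1RN as a percent of IL1A plus IL1B, in CPM per kilobase on a log axis, for each library of the 12 groups, with bars at group means (n = 3). HN6 with the ACLY plasmid lies near 4.83% and its vector near 2.27%, while Cal27 with the ACLY plasmid lies near 0.724% and its vector near 3.26%. The part of HN4-type transcripts in the treated Cal27 values was not tested.

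Other ratios moved in HN6 as well. IL1B over IL1A per kilobase was 0.410 ± 0.0225 with the ACLY plasmid and 0.961 ± 0.0434 with the vector. IL1R1 over its accessory chain was 2.51 ± 0.103 with the ACLY plasmid and 1.62 ± 0.0588 with the vector. These ratios show unequal change of the paired transcripts and do not themselves show which moved. Tested singly, both transcripts of each pair were called higher with the ACLY plasmid. Their log2 changes were 1.74 for IL1A, 0.51 for IL1B, 1.11 for IL1R1 and 0.47 for IL1RAP.

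Whether the response differed among lines was tested directly with both interaction terms. For IL-8 it differed for IL1A, IL1RN, IL1R1 and IL1RAP, 4 of 10 members beside 40.2% of all genes. Without replicate 3 of Cal27 with IL-8 it differed for these and IL1B and IL18. Calls over all genes in this test also moved with the library left out, from 6361 to 10298, against 7399 with every library. For the plasmid, as labelled, the response differed for 9 members, all but IL1R2, beside 71.0% of all genes. The plasmid test takes HN4 in its labelled direction, and no test with HN4 turned was run.

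Genes around the family were described by lists. Of 15 genes known to be induced by IL-1 in epithelium, all 15 were called higher in HN6 with the ACLY plasmid. In that comparison 51.6% of all genes were called, with 26.8% higher. The median log2 change of the 15 was 0.95, beside 0.04 over all genes. They were led by CSF3 (4.88 ± 0.67 CPM with the ACLY plasmid, 0.859 ± 0.168 CPM with the vector), LCN2 (log2 change 1.68) and CXCL1 (1.36). These are the neutrophil growth factor, siderophore binder and chemokine. In HN4, 13 were higher and none lower in the libraries labelled ACLY (median 0.66), led by CXCL8 (1.76) and CXCL2 (1.56). That stands beside 38.1% of all genes called, with 19.0% higher. With IL-8, 11 of the 15 were lower and none higher in HN4 (median -0.50), led by CXCL8 (-1.13). Of all genes, 14.0% were called there, with 7.07% lower. In HN6 with IL-8, 5 were lower and none higher (median -0.29), led by CXCL8 (-1.35) and CXCL1 (-0.90), beside 15.5% of all genes called, with 7.83% lower. CXCL8 encodes the protein that was added. In Cal27, 4 were higher and 3 lower with IL-8, and 8 were higher and 4 lower with the ACLY plasmid, beside 39.4% and 63.2% of all genes called in those comparisons. CSF3, the largest of these, was at 29.1 ± 7.48 CPM in Cal27 with IL-8, against 1.46 ± 0.206 CPM untreated, and at 44.4 ± 1.13 CPM with the ACLY plasmid, against 1.98 ± 0.403 CPM with the vector. Untreated HN4 held 121 ± 5.00 CPM of CSF3, and the part of HN4-type transcripts in these Cal27 values was not tested.

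Of 16 signalling genes below the receptor, 6 were higher and 4 lower in HN6 with the ACLY plasmid, beside 51.6% of all genes called. IRAK3, a kinase-dead brake on the pathway, had 5.69 ± 1.26 CPM with the ACLY plasmid and 1.15 ± 0.0526 with the vector, and IRAK2 (log2 change 0.64) and the ubiquitin ligase PELI1 (0.88) also rose. In Cal27, IRAK3 was at 4.74 ± 0.576 CPM with IL-8 against 0.191 ± 0.0861 CPM untreated, and at 9.46 ± 0.358 CPM with the ACLY plasmid against 0.154 ± 0.105 CPM with the vector, while untreated HN4 held 23.0 ± 1.85 CPM. In Cal27 8 signalling genes were higher and 8 lower with the ACLY plasmid, beside 63.2% of all genes, with PELI1 (-1.37) and TRAF6 (-1.29) among the falls. In HN4, IRAK2 was 0.608 times as high with IL-8 as untreated and 2.12 times as high in libraries labelled ACLY as in those labelled vector.

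Of 15 maturation and release genes, 14 were tested. In HN6 with the ACLY plasmid 7 were higher and 2 lower, beside 51.6% of all genes called, led by the DNA sensor AIM2 (log2 change 1.45), cathepsin S (CTSS, 1.19), CASP1 (0.97) and the adaptor PYCARD (0.60). In Cal27 with the ACLY plasmid 2 were higher and 8 lower, beside 63.2% of all genes called, with AIM2 (-1.0), PYCARD (-0.98) and CASP1 (-0.87) falling and the pore protein GSDMD (0.85) rising. CASP1, which cleaves the IL-1 beta and IL-18 precursors, was at 19.3 ± 1.37 CPM in HN6 with the ACLY plasmid, against 9.96 ± 1.14 CPM with the vector, and at 51.8 ± 0.87 CPM in Cal27 with the ACLY plasmid, against 94.2 ± 2.36 CPM with the vector. Cal27 held 8.0, 9.43 and 79.3 CPM of AIM2, PYCARD and GSDMD with the ACLY plasmid, against 15.8, 18.4 and 43.6 CPM with the vector. Untreated HN4 held 6.94, 8.34 and 102 CPM of these, and 29.3 CPM of CASP1. The part of HN4-type transcripts in these Cal27 changes was not tested. With IL-8, 1 maturation or release gene was higher and 3 lower in HN4, none higher and 1 lower in HN6, and 1 higher and 6 lower in Cal27, beside 14.0%, 15.5% and 39.4% of all genes called.

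Of 10 further family genes, 5 were tested. In Cal27 the IL-33 receptor IL1RL1 rose with IL-8 (3.54 ± 0.225 CPM, against 0.908 ± 0.0658 CPM untreated) and with the ACLY plasmid (3.44 ± 0.0809 CPM, against 0.732 ± 0.141 CPM with the vector). SIGIRR, an inhibitory receptor, was at 28.0 ± 0.577 CPM with the ACLY plasmid and 13.4 ± 0.72 CPM with the vector. With IL-8 it was at 18.8, 18.4 and 48.0 CPM, against 14.5, 11.2 and 11.4 CPM untreated, so replicate 3 stood far above the others. The IL-18 receptor chain IL18R1 and the IL-18 binding protein gene IL18BP fell with both. With the ACLY plasmid they were at 4.51 and 6.91 CPM, against 8.06 and 10.5 CPM with the vector. Untreated HN4 held 2.17 and 6.53 CPM of these, 43.9 CPM of SIGIRR and 0.201 CPM of IL1RL1, so only IL1RL1 of the named genes moved away from the HN4 level. The part of HN4-type transcripts in these Cal27 changes was not tested. In HN6 with the ACLY plasmid the IL-36 receptor IL1RL2 fell to 4.07 ± 0.273 CPM, against 7.33 ± 1.30 CPM with the vector, and no other of the 5 was called. With IL-8 none of the 5 was called in HN4 or HN6.

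Over the 12 group means, each member with at least 5 CPM in some group was matched to the protein-coding genes of most similar pattern, by Pearson r of log2(CPM + 1) among 12433 genes. IL1A was most like PHYKPL (r = 0.996) and TNFRSF14 (0.993), and IL1B was most like RBAK (0.988) and CYP4X1 (0.987). IL1RN was most like CLEC12A (0.989) and TRPM4 (0.987), and IL18 was most like KEAP1 (0.969) and TYW1 (0.968). IL1R1 was most like XKRX (0.995) and PDE5A (0.989), and IL1RAP was most like TLE4 (0.991) and KLF9 (0.983). The 12 points share lines and libraries, so these values only describe likeness of pattern.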

How the data were processed

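Libraries from 3 cell lines, 36 in all, were sequenced after poly-T selection, per the labels' protocols. The deposited table holds raw read counts per gene, 1 column per library. HISAT2 2.0.5, featureCounts 1.5.0-p3, CASAVA and DESeq2 on build hg38 are named in the submitters' processing notes. The annotation release, strand setting and treatment of multimapping reads are not given in the sources used here. Genes overlapping a member had at most 71 reads over 36 libraries.

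Each experiment (18 libraries) was fitted in R 4.3.3 with edgeR 4.0.16, which rests on limma 3.58.1. The fit used TMM factors, the filterByExpr filter with a minimum count of 10 and total of 15 (members and the checks ACLY, CXCR1, CXCR2 and CXCL8 always kept), group means, robust quasi-likelihood tests on 12 residual degrees of freedom and Benjamini-Hochberg adjustment over 18400 or 18558 genes, with a threshold of 0.05. The fits were tested on simulated data. No pair of replicates agreed within sampling noise (lowest chi-square per degree of freedom 1.99 over 36 pairs). Pairs with replicate 3 of Cal27 with IL-8 gave 104 and 107, and pairs with replicate 3 of HN4 labelled ACLY gave 36.6 and 41.1. The highest value of any other pair was 8.44. Depth ran from 16570601 to 20232735 counts.

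Members and lists were chosen with earlier results of these data known. Beside all members, up to 4 genes of a list were eligible to be named in a comparison, those with the largest absolute log2 change among called genes whose libraries did not overlap. SOD2 was left out of the response list because its symbol stood on 2 rows. Genes of 1 line had at least 20 CPM in its untreated libraries and at most 0.3 CPM in those of each other line. Alternatives were other scaling factors, other filters, other sets of libraries, DESeq2 1.42.0, the replicate number as a block and leaving out each library.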

Additional observations from a re-analysis of the deposited data

Results flagged for a closer look

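The response to IL-8 differed among the 3 lines for 4 members by the interaction test in edgeR. Their adjusted p-values were 3.81e-06 for IL1A, 1.77e-05 for IL1RN, 0.00726 for IL1RAP and 0.0338 for IL1R1. IL1A changed by 0.77 log2 units in HN6, by -0.38 in HN4 and by -0.20 in Cal27.

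The response to the plasmid, as labelled, differed among the lines for 9 members by the same edgeR test. The adjusted p-values of the agonists and other ligands were 2.59e-19 for IL1A, 1.46e-10 for IL1B, 1.71e-07 for IL36G, 1.76e-05 for IL18 and 0.0237 for IL33, the last on 24 reads in 18 libraries. Those of the antagonists were 2.33e-20 for IL1RN and 0.0044 for IL36RN, and those of the receptor chains were 1.27e-15 for IL1R1 and 1.86e-11 for IL1RAP. IL1RN changed by 2.34 log2 units in HN6, by -2.35 in Cal27 and by 0.74 in HN4 as labelled. Both sets of tests include the HN4 libraries whose ACLY level goes against their labels, in the plasmid case, and the Cal27 libraries that read HN4-type genes. The part of either in these differences was not tested.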

How the results depend on the processing

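Of 49 member calls, 38 were kept under every alternative that tested the gene and 0 reversed. A filter that dropped a member was not counted against its calls. In 17 of 18 pairs same-numbered libraries correlated below 0.1 in their deviations from group means. This does not settle whether they share a day or batch, which the labels do not say. The replicate block kept 48 calls, all but IL33 in Cal27 against HN6 (4.54, edgeR adjusted p = 0.0558). With only the groups compared, IL-8 called 6556 of 15678 genes in HN4, 6018 of 15632 in HN6 and 2586 of 16613 in Cal27. Those counts stand in place of 2567, 2845 and 7246 of 18400. With only the groups compared, 4 members were called in HN6 and 1 in Cal27. With no filter, 1 member was called in HN6 with IL-8, beside 1476 genes higher and 1250 lower. With a mean of at least 5 CPM, only 6 members were tested. Of these, 5 were called for Cal27 with the ACLY plasmid, beside 4197 genes higher and 4216 lower, and 5 for Cal27 against HN4. That filter called 7758 of 11424 genes for Cal27 against HN4 and 8196 of 11424 for Cal27 against HN6. Those counts stand in place of 11697 and 12581 of 18400. Leaving out 1 library gave, for members and for genes called, 2 to 4 and 1403 to 5733 (HN4 with IL-8), 1 to 5 and 1742 to 6194 (HN6 with IL-8), 2 to 5 and 5482 to 7876 (Cal27 with IL-8), 3 to 4 and 6082 to 7193 (HN4 as labelled ACLY), 7 to 7 and 8733 to 10265 (HN6 with ACLY), and 6 to 8 and 10894 to 12402 (Cal27 with ACLY). Between lines it gave 6 to 8 and 11643 to 13967 (HN6 against HN4), 7 to 8 and 10892 to 13593 (Cal27 against HN4), and 7 to 9 and 11924 to 14247 (Cal27 against HN6). For the interactions it gave 3 to 6 and 6361 to 10298 (IL-8), and 8 to 9 and 12712 to 13682 (plasmid). With upper-quartile factors, higher and lower calls were 4994 and 6870 for Cal27 with ACLY (6352 and 5383 with TMM), 4403 and 2741 for HN4 labelled ACLY (3517 and 3552), 3471 and 3951 for Cal27 with IL-8 (4175 and 3071), 814 and 1690 for HN4 with IL-8 (1267 and 1300), and 1761 and 998 for HN6 with IL-8 (1405 and 1440). With library size alone they were 792 and 1588 for HN4 with IL-8 and 1691 and 937 for HN6 with IL-8. The median log2 change of all genes then moved to 0.15 for Cal27 against HN6 and -0.12 for HN6 against HN4, and to -0.11 for Cal27 with ACLY under upper-quartile factors, beside 0.03, -0.03 and 0.03. The cause of these changes was not tested. Depth limits IL33, IL36G, IL36RN, IL1R2 and HN4's IL1RN, which rest on few reads.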
